A study of Mus musculus with 2 samples.

Results

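The genes described are 10 imprinted regulators of growth: H19, Cdkn1c, Kcnq1ot1, Plagl1, Grb10, Peg3, Zim1, Mest, Peg10 and Ndn. They were picked by symbol from the 55536 mouse genes of the deposited tables, and all 10 were matched to 1 gene identifier each. The RNA came from heart tissue of male B6CASTF1/J mice, the F1 hybrid of C57BL/6J and CAST/EiJ, taken at 4 days of age. There was 1 group of 2 hearts, called replicate 1 and replicate 2, with no treatment and no comparison group. The labels give the hearts different animal numbers but the same donor record, so the spread between them may be technical in part.

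Per the labels, each library started from 300 ng of total RNA with ribosomal RNA reduced, so RNAs without a poly(A) tail could be sampled. The libraries held 31512574 and 35743975 expected counts on mouse genes. With 2 hearts the smallest p of a two-sided exact sign-flip test is 0.5, so no test was run and every difference below describes these 2 libraries. The tables hold no separate values for the parental alleles, so the parent of origin given for a gene is background.

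Imprinted genes are transcribed mainly from the copy inherited from 1 parent, as set by DNA methylation placed in the germ line. Many act on fetal and early postnatal growth: those expressed from the paternal copy tend to promote it, and those expressed from the maternal copy tend to restrain it, although both classes hold exceptions. Several decline in most organs after birth, and the newborn heart is an organ whose muscle cells are leaving the cell cycle.

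H19, a long noncoding RNA expressed from the maternal copy, carries the hairpin of miR-675, and Mest, expressed from the paternal copy, carries that of miR-335. In the annotation the Mir675 hairpin lies in exon 1 of 5 of the transcript H19-202 (chromosome 7, 142577064 to 142577147, mm10, minus strand), and the Mir335 hairpin lies in intron 2 of Mest-211 (chromosome 6, 30741299 to 30741396, plus strand). The mature forms are shown because they are the best known small products of these hosts, with the seed, bases 2 to 8, in capitals (RefSeq, GRCm38.p6).
mmu-miR-675-5p: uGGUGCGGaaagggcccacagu
mmu-miR-675-3p: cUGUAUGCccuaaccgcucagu
mmu-miR-335-5p: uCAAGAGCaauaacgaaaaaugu
mmu-miR-335-3p: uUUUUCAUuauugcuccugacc
None of the 4 seeds occurs in another of the 1738 mature miRNAs of that table. The gene tables list both hairpins at 0 counts in both hearts, but their rows of 84 and 98 nt have an effective length of 0, so these libraries measured the hosts and not the miRNAs.

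The second set of sequences is shown because Grb10 and Mest each have an upstream and a downstream start, and the transcript values below differ between them. The runs are the bases just before each RefSeq start, read 5′ to 3′ on the gene's strand with CpG dinucleotides in capitals (GRCm38.p6, the build that mm10 names). The run before the upstream Mest start ends where the first exon of another annotated Mest transcript begins.
Grb10 upstream start, chr11:12037421-12037670, minus strand: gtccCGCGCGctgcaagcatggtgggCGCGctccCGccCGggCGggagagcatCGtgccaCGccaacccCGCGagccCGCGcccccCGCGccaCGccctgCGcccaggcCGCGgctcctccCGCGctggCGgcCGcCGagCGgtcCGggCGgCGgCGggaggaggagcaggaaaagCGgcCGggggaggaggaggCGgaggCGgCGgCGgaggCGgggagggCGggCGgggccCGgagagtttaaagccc
Grb10 downstream start, chr11:12027972-12028221, minus strand: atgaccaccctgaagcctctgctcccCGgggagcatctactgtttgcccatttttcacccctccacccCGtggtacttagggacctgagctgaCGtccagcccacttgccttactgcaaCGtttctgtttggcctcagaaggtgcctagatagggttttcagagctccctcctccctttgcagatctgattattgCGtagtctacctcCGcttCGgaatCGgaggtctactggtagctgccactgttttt
Mest upstream start, chr6:30733256-30733453, plus strand: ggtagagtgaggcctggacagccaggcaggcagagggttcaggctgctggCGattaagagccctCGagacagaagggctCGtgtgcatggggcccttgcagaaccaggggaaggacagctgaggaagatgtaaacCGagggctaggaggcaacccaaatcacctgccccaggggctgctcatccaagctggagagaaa
Mest downstream start, chr6:30737800-30738049, plus strand: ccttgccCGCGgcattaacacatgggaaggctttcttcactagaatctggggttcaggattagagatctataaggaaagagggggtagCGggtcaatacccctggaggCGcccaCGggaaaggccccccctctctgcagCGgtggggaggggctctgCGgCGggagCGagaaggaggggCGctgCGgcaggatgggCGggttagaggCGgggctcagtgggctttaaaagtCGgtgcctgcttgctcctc
The run before the upstream Grb10 start held 40 CpG in 250 bases, against 8 before its downstream start. In Mest the order was the other way, with 4 CpG in 198 bases upstream and 14 in 250 bases downstream.

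Across all 10 genes, the level spanned 452-fold, from H19 to Kcnq1ot1, by mean TPM (transcript abundance, corrected for length and scaled to the library). With 1 TPM in each heart as the bar, 9 of the 10 were expressed, beside 23.8% of all 55536 mouse genes. The exception was Kcnq1ot1, which stood at 0.91 in replicate 2. Together the 10 genes held 0.109% of the mouse-gene TPM in replicate 1 and 0.1% in replicate 2, and H19 alone made up 47.7% and 50.1% of their sum.

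**Figure D1:**
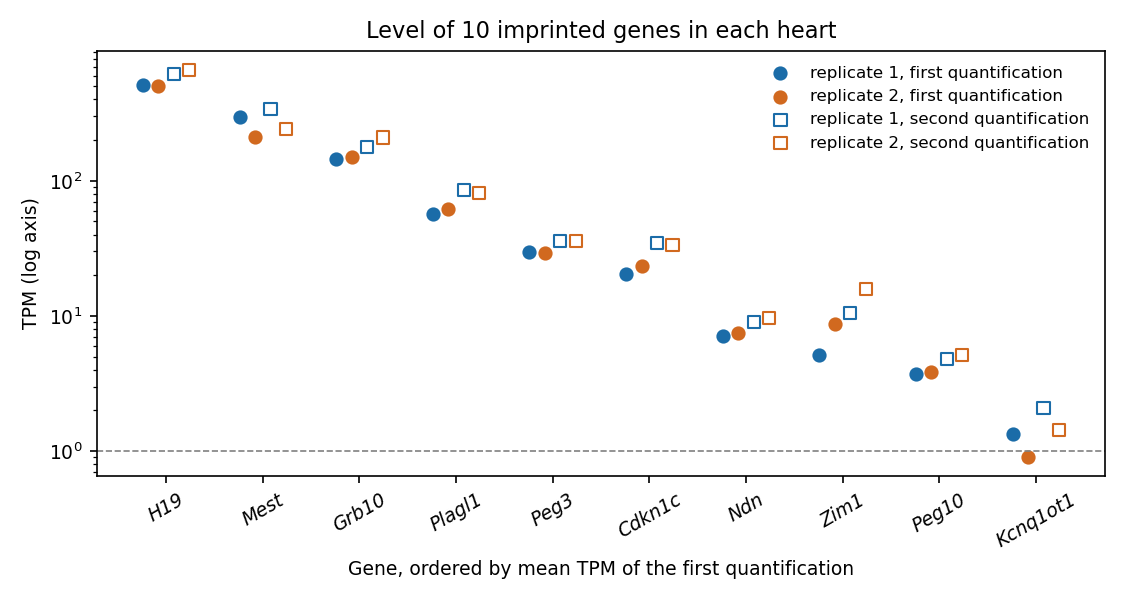
TPM of the 10 genes in each heart on a log axis, ordered by mean TPM of the first quantification; filled circles are the first quantification, open squares the second, blue replicate 1 and orange replicate 2, and the dashed line marks 1 TPM. The points run from H19 at 513.97 and 499.01 down to Kcnq1ot1 at 1.33 and 0.91, and every open square of a heart lies above the filled circle of that heart.

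By the mean of both hearts the order was H19, Mest, Grb10, Plagl1, Peg3, Cdkn1c, Ndn, Zim1, Peg10 and Kcnq1ot1. Ndn and Zim1 were the only neighbours in that order whose ranges over the hearts overlapped. By a second deposited quantification of the same libraries, Zim1 stood above Ndn, the other 8 kept their places, and no neighbours overlapped.

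H19, on distal chromosome 7, had the highest level of the 10 genes. H19 (ENSMUSG00000000031.16, chromosome 7, 142575529 to 142578143, minus strand) had a TPM of 513.97 in replicate 1 and 499.01 in replicate 2, a mean of 506 ± 10.6 (SD, n = 2), from 24467 and 28435 counts. Its level was thus nearly the same in both hearts. The interval of TPM that the authors deposited did not hold the value, with bounds of 493 and 510 in replicate 1 and 482 and 496 in replicate 2. H19 was the only one of the 10 genes whose TPM lay above its upper bound.

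The neighbour that shares its enhancers and its imprinting control region, the paternally expressed growth factor Igf2, stood at 690.13 and 720.23 TPM. Ratios between 2 genes are log2 ratios of TPM with a pseudocount of 0.1 unless stated. H19 was below Igf2 in both hearts, with log2 ratios of H19 over Igf2 of -0.43 and -0.53, a mean of -0.48 ± 0.07 (SD, n = 2). Of the 4 neighbours listed in this domain, Igf2 and the mitochondrial ribosomal protein gene Mrpl23 passed 1 TPM in both hearts, and the second quantification, introduced above, put Mrpl23 far higher, at a mean of 78.5. Ins2, an insulin gene, had 0 and 3 counts, and Tnnt3, the fast skeletal troponin T, had 11 in each heart. Proteins that bind H19 and Igf2 RNA were all expressed: each of 5 listed genes passed 1 TPM, led by Khsrp at 47.00 and 47.58 and Elavl1 at 42.35 and 40.22. The fetal Igf2 mRNA-binding proteins were lower, with Igf2bp2 at 11.73 and 10.03, Igf2bp3 at 7.40 and 7.23 and Igf2bp1 at 3.89 and 2.63.

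Cdkn1c and Kcnq1ot1 lie in the adjoining Kcnq1 domain and are opposed in function: Cdkn1c encodes the cyclin-dependent kinase inhibitor p57 and is maternally expressed, and Kcnq1ot1 is a paternally expressed antisense RNA that silences the domain's genes on its own chromosome. Cdkn1c (ENSMUSG00000037664.13, chromosome 7, 143458339 to 143461050, minus strand) had a TPM of 20.59 and 23.56, a mean of 22.1 ± 2.1 (SD, n = 2), from 674 and 962 counts. Kcnq1ot1 (ENSMUSG00000101609.2, chromosome 7, 143203458 to 143296549, minus strand) had 1.33 and 0.91, a mean of 1.12 ± 0.297 (SD, n = 2). In these values Cdkn1c was higher in replicate 2 and Kcnq1ot1 higher in replicate 1, and neither value of one gene came near those of the other.

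Transcript length separates level from counts here. Kcnq1ot1 is annotated as 1 unspliced transcript of 93092 nt, and it drew 3004 and 2435 counts, more than Cdkn1c in both hearts. Per length, Cdkn1c exceeded Kcnq1ot1 by a log2 ratio of 3.85 in replicate 1 and 4.55 in replicate 2, while on counts the ratios were -2.16 and -1.34. Kcnq1ot1 lies wholly inside Kcnq1 on the opposite strand, and Kcnq1, a cardiac potassium channel subunit, had 1679 and 1804 counts and a TPM of 26.48 and 23.19. The labels name a stranded library, but whether the counting used strand is not given in the sources used here, so reads of Kcnq1ot1 and of Kcnq1 introns cannot be told apart.

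The other cyclin-dependent kinase inhibitors of the family stood close to Cdkn1c. Cdkn1a (p21) had 16.13 and 23.96 TPM and Cdkn1b (p27) 22.32 and 20.02. Cdkn1c over Cdkn1a gave log2 ratios of 0.35 and -0.02, and Cdkn1c over Cdkn1b gave -0.12 and 0.23, so by the first quantification neither pair kept 1 order in both hearts. By the second quantification Cdkn1c, at 34.8 and 33.6, was above Cdkn1a, at 19.5 and 29.9, and above Cdkn1b, at 29.2 and 27.2. On counts, not corrected for length, it was below both, with log2 ratios of -0.03 and -0.35 over Cdkn1a and -1.23 and -0.73 over Cdkn1b. All 12 listed CIP/KIP genes, cyclins and cyclin-dependent kinases passed 1 TPM, led by Ccnd2 at 142.65 and 122.26, Cdk4 at 115.07 and 121.43, Ccnd3 at 70.79 and 73.40 and Ccnd1 at 59.52 and 54.61. Of the 9 neighbours listed in the Kcnq1 domain, 5 passed 1 TPM, led by the tetraspanin Cd81 at 247.61 and 260.19 and the histone chaperone Nap1l4 at 88.47 and 85.22. The placental genes Phlda2 and Ascl2, which are imprinted in the placenta, drew at most 1 count in a heart.

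Plagl1, a paternally expressed zinc finger transcription factor known to act on other imprinted genes, was among the 4 most abundant. Plagl1 (ENSMUSG00000019817.18, chromosome 10, 13060504 to 13131694, plus strand) had a TPM of 57.13 and 61.84, a mean of 59.5 ± 3.33 (SD, n = 2), from 3721 and 5198 counts. Both of its relatives were far lower: Plag1 had 4.96 and 3.54 and Plagl2 had 4.40 and 4.06. Plagl1 exceeded Plag1 by log2 ratios of 3.50 and 4.09 and Plagl2 by 3.67 and 3.90. Phactr2, the neighbour matched in this domain, stood at 33.81 and 32.88.

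Grb10, an adaptor that binds the insulin and IGF1 receptors and restrains their signalling, is maternally expressed in most tissues. Grb10 (ENSMUSG00000020176.17, chromosome 11, 11930508 to 12038683, minus strand) had a TPM of 143.87 and 149.37, a mean of 147 ± 3.89 (SD, n = 2), from 14878 and 19077 counts. The values of the hearts were close. Among its relatives, Grb14 stood at 47.78 and 45.51, and Grb7 was under 1 TPM with 2 and 0 counts. Grb10 exceeded Grb14 by log2 ratios of 1.59 and 1.71.

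The receptors and partners of Grb10 were expressed as well: 8 of 9 listed genes passed 1 TPM, Grb7 being the exception. The insulin receptor Insr stood at 67.99 and 51.39 and Igf1r at 21.28 and 22.47. The ubiquitin ligase Nedd4, which binds Grb10, led the list at 268.90 and 255.93. Irs2, an insulin receptor substrate, was the only gene of this list past 2-fold between the hearts, at 4.91 and 16.57 TPM. Both listed neighbours passed 1 TPM. Ddc, the aromatic amino acid decarboxylase next to Grb10, which is known to be imprinted in the developing heart, had 17.31 and 21.57, and Grb10 exceeded it by log2 ratios of 3.05 and 2.79. The actin nucleator Cobl had 17.03 and 21.09.

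Peg3 and Zim1 encode zinc finger proteins of 1 domain on proximal chromosome 7 and are expressed from opposite parental copies, Peg3 from the paternal and Zim1 from the maternal. Peg3 (ENSMUSG00000002265.16, chromosome 7, 6703892 to 6730431, minus strand) had a TPM of 29.63 and 29.17, a mean of 29.4 ± 0.325 (SD, n = 2), from 5507 and 6424 counts. Zim1 (ENSMUSG00000002266.17, chromosome 7, 6671269 to 6696450, minus strand) had 5.12 and 8.72, a mean of 6.92 ± 2.55 (SD, n = 2), from 484 and 763 counts. In TPM of the first quantification, Peg3 had the smallest coefficient of variation between the hearts among the 10 genes, 1.11%, and Zim1 the largest, 36.8%.

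Peg3 was the higher of the pair in both hearts, by log2 ratios over Zim1 of 2.51 and 1.73. The paternally expressed Usp29 starts, in its nearest transcript, 157 bases from Peg3-201 on the opposite strand, and it had only 1.22 and 1.87 TPM. Peg3 exceeded Usp29 by log2 ratios of 4.49 and 3.89, so the RNA levels of this divergent pair were far from equal. The other listed neighbours Zim2, Zim3 and Zfp264 had 0 counts in both hearts. A count of 0 allows up to 0.0952 CPM (counts scaled to the library) in replicate 1 and 0.0839 in replicate 2, taken as 3 counts and covering counting error only.

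Mest and Peg10 are paternally expressed genes in separate domains of chromosome 6. Mest, which encodes a protein related to alpha/beta hydrolases, was the second most abundant of the 10. Mest (ENSMUSG00000051855.15, chromosome 6, 30723547 to 30748465, plus strand) had a TPM of 296.10 and 211.61, a mean of 254 ± 59.7 (SD, n = 2), from 14624 and 12598 counts. It was lower in replicate 2 in both TPM and counts. Its convergent neighbour Copg2, a subunit of the vesicle coat complex, overlaps it by 912 bases and stood at 21.21 and 21.30, so Mest exceeded Copg2 by log2 ratios of 3.80 and 3.31. Of the 4 listed neighbours, Copg2 and Cep41 passed 1 TPM in both hearts, and Klf14 and Cpa4 did not.

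Peg10, a gene derived from a retrotransposon and needed in the placenta, was low in these hearts. Peg10 (ENSMUSG00000092035.8, chromosome 6, 4747306 to 4760517, plus strand) had a TPM of 3.70 and 3.84, a mean of 3.77 ± 0.099 (SD, n = 2), from 581 and 717 counts. Sgce, the paternally expressed sarcoglycan gene whose Sgce-201 starts 99 bases from Peg10-202 on the opposite strand, had 18.67 and 20.13. Peg10 was below Sgce by log2 ratios of -2.30 and -2.36. Of 8 listed neighbours 6 passed 1 TPM, all above Peg10, among them Casd1 at 14.15 and 14.46, Ppp1r9a at 16.09 and 11.29 and Pon3 at 12.27 and 10.54. Tfpi2 and Calcr did not pass.

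Ndn encodes necdin, a paternally expressed protein of the MAGE family. Ndn (ENSMUSG00000033585.5, chromosome 7, 62346569 to 62350262, plus strand) had a TPM of 7.11 and 7.52, a mean of 7.31 ± 0.29 (SD, n = 2), from 621 and 779 counts. Its close relative and neighbour Magel2 had 6 and 18 counts and a TPM of 0.05 and 0.14, and Ndn exceeded it by log2 ratios of 5.59 and 4.99. Since the pseudocount is near the level of Magel2 itself, the size of this ratio depends on it: the mean was 5.29, and 2.93 with a pseudocount of 1. The X-linked MAGE genes Maged1, at 102.96 and 114.44, and Maged2, at 97.36 and 86.73, stood well above Ndn.

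In the domain of Ndn, 6 of 8 listed neighbours passed 1 TPM. Snrpn stood at 96.24 and 40.87 and Snurf at 259.49 and 114.73, but these overlapping genes share reads, and the second quantification put Snurf at 0, so their separate levels are uncertain. Ube3a, a ubiquitin ligase, had 57.63 and 60.73. Snhg14, the long noncoding RNA of this domain that runs antisense to Ube3a, had 13.57 and 7.11. Ndn thus lay below the leading transcripts of its own domain, as Peg10 did in its own.

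**Figure D2:**
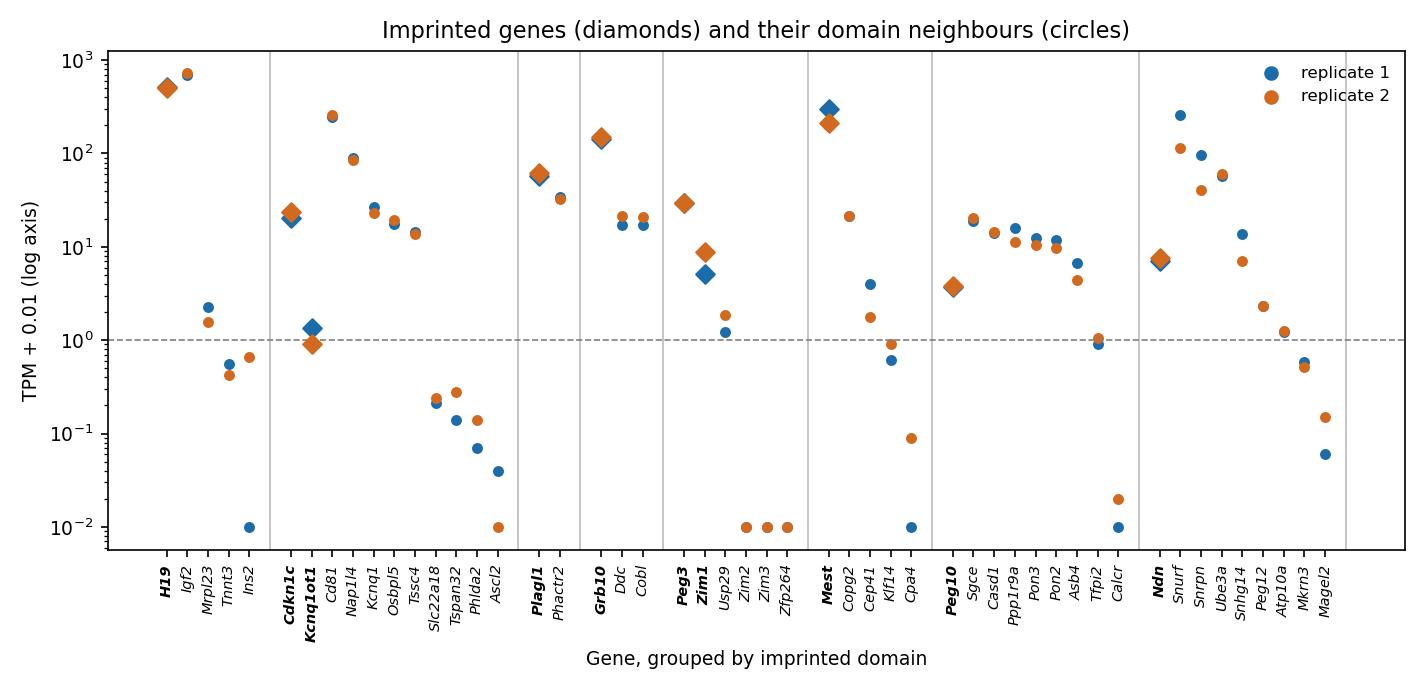
TPM + 0.01 on a log axis of the 10 genes (diamonds, bold names) and of 40 neighbours in 8 domains (circles), blue for replicate 1 and orange for replicate 2, with the dashed line at 1 TPM and vertical lines between domains. H19, Mest, Grb10, Plagl1 and Peg3 sit at or near the top of their domains, while Peg10, Ndn, Cdkn1c and Kcnq1ot1 have neighbours above them; Zim2, Zim3 and Zfp264 sit at the bottom at 0 TPM.

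Over all 8 domains, 25 of the 40 neighbours that were matched passed 1 TPM in both hearts, and 3 had 0 counts in both. The median of the neighbours' mean TPM was 4.24, against 25.7 for the 10 genes. Among 30 other imprinted genes, 25 passed 1 TPM, with a median of 9.12. They were led by Gnas at 759.72 and 764.69, the receptor Igf2r, which clears IGF2, at 119.07 and 133.32, Dcn at 111.48 and 153.33 and Meg3 at 154.02 and 44.41. Genes that keep imprints in place were expressed too, 8 of 9 past 1 TPM, among them Trim28 at 108.76 and 104.55, Zfp445 at 51.90 and 42.73, Dnmt1 at 30.59 and 28.00 and Zfp57 at 6.09 and 4.08; Dppa3 had 0 and 1 counts.

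The difference between the hearts was next taken from counts scaled by TMM (trimmed mean of M-values), as the log2 ratio of replicate 2 over replicate 1. The interval given is the exact Clopper-Pearson 95% interval, which covers counting error only. Of the 10 genes, 8 were higher in replicate 2, beside 49.6% of the 16271 genes that passed the filter on low counts, and all 10 passed that filter. No gene of the 10 differed by over 2-fold, beside 3.06% of the filtered genes.

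At the lower bar of 1.2-fold, 3 of the 10 genes were higher in replicate 2, beside 16% of the filtered genes, and 2 were lower, beside 22%. The 3 were Zim1, with a log2 ratio of 0.54 (0.37 to 0.71), Cdkn1c, with 0.40 (0.25 to 0.54), and Plagl1, with 0.37 (0.30 to 0.43). The 2 were Kcnq1ot1, with -0.42 (-0.50 to -0.34), and Mest, with -0.33 (-0.37 to -0.30). On scaled counts, Kcnq1ot1 and Cdkn1c, of the same domain, differed in opposite directions. Scaled counts of the second quantification gave opposite directions too, with 0.37 for Cdkn1c and -0.41 for Kcnq1ot1. In TPM of the second quantification, not scaled by TMM, both were lower in replicate 2. Cdkn1c was at 34.8 and 33.6 and Kcnq1ot1 at 2.08 and 1.44. A link between these 2 genes was not tested.

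The other 5 genes were within 1.2-fold. Grb10 had a log2 ratio of 0.24 (0.21 to 0.27), Ndn 0.21 (0.06 to 0.37) and Peg10 0.19 (0.03 to 0.35). Peg3 had 0.11 (0.05 to 0.16) and H19 0.10 (0.08 to 0.13). All 10 counting intervals left out 0, but with counts from 484 to 28435 these intervals are narrow and say nothing of the spread between animals. The median over the 10 genes was 0.20, and the median size regardless of sign was 0.29, against 0.19 for the filtered genes.

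The direction depends on the scale for H19 and Peg3, and also for Cdkn1c and Plagl1. As log2 ratios of TPM of the first quantification, with a pseudocount of 0.1, H19 gave -0.04 and Peg3 gave -0.02. On that scale 6 of the genes were higher and 4 lower in replicate 2. The same TPM ratio had a median of -0.13 over all filtered genes. Relative to that median 8 of the 10 were again above and 2, Kcnq1ot1 and Mest, below. In TPM of the second quantification, Cdkn1c (34.8 and 33.6) and Plagl1 (85.6 and 81.1) were lower in replicate 2. There H19 (615 and 660) and Peg3 (35.6 and 36.1) were higher. On scaled counts of the second quantification, these genes were all higher in replicate 2. The log2 ratios were 0.37 for Cdkn1c, 0.40 for Plagl1, 0.14 for H19 and 0.16 for Peg3.

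**Figure D3:**
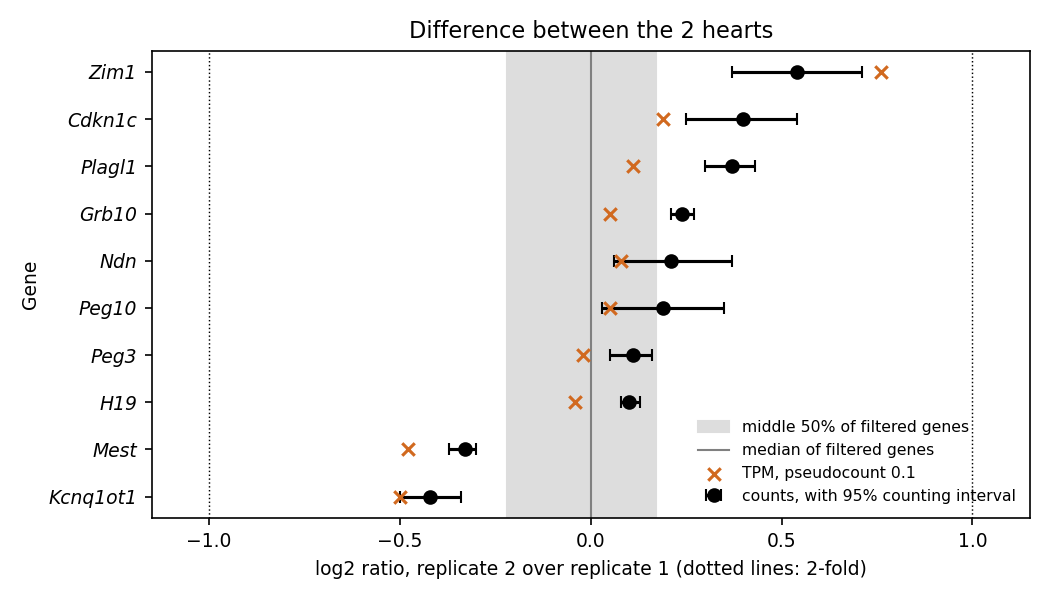
Log2 ratio of replicate 2 over replicate 1 for each gene; black points are TMM-scaled counts with 95% counting intervals, orange crosses are TPM, the grey band holds the middle 50% of the filtered genes and the dotted lines mark 2-fold. Kcnq1ot1 and Mest lie left of the band on both scales, and Zim1, at 0.54 on counts, lies farthest right. The band is drawn from scaled counts only, so it is not the middle 50% of the TPM ratios.

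Other features of the libraries moved along with these differences, and their part in them was not tested. Nuclear long RNAs were mostly lower in replicate 2 on scaled counts, as Kcnq1ot1 was. Of 8 listed, 5 were lower by over 1.2-fold, beside 22% of the filtered genes. The other 3 were higher by less than 1.2-fold, and the median log2 ratio of the 8 was -0.58. Among them Malat1 stood at 4041.53 and 2500.21 TPM, Rian at 106.76 and 41.45 and Airn, the antisense RNA of Igf2r, at 41.15 and 25.79, and Neat1 at 58.51 and 42.04, although Neat1 was not lower on scaled counts, with a log2 ratio of 0.14. Filtered genes annotated as sense intronic had a median of -0.60 over 111 genes, those annotated as antisense -0.10 over 256, and protein-coding genes 0.02 over 13566. Those annotated as long intergenic noncoding RNA had a median of -0.10 over 339.

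Marker genes describe the cells behind each library, and in bulk RNA fewer cells of a type and less RNA per cell cannot be told apart. All 8 cardiomyocyte markers were expressed in both hearts, with a summed TPM of 34722 and 32716, and Myl2 and Myh6 led them. All 8 fibroblast markers were expressed, with sums of 1404 and 1905, and 7 of them were higher by over 1.2-fold in replicate 2 on scaled counts. All 6 erythroid markers used were expressed, with sums of 1409 and 5293, and 5 of them were over 2-fold higher in replicate 2 on scaled counts. The sixth, Slc4a1, had a log2 ratio of 0.24 on scaled counts and a TPM of 3.42 and 3.02. Endothelial sums were 863 and 787, mural 175 and 174, epicardial 49 and 51.8, and macrophage 36 and 33.2.

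Tissue from outside the heart was looked for in the same way. The brown fat marker Ucp1 had 0 and 396 counts, Plin1 0 and 116 and Adipoq 1 and 59, so these markers were found in replicate 2 and hardly or not at all in replicate 1. The brown fat sum was 40.7 and 52.5 TPM, most of it from Cidea and Prdm16, which were expressed in both hearts. Of the 6 skeletal muscle genes, the defining regulator Myod1 was at 0 counts in both hearts, and Ckm and Acta1, which the heart also expresses, made up nearly all of the sum of 1999 and 1449. Liver markers summed to 8.13 and 7.58.

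The transcripts behind these genes were read from both quantifications as shares of the gene's TPM. Of the 8 genes with several annotated transcripts, 7 had the same leading transcript in both by the mean share of the hearts, beside 75.4% of the 11179 expressed genes of that kind. Peg10 was the exception, and Kcnq1ot1 and Ndn have 1 annotated transcript each.

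H19-202, the full-length form with 5 exons, held 78.3% and 79.8% of H19 in the hearts, and 86.1% and 80% by the second quantification. H19-207 was next at 17% and 15.2%, but the second quantification gave it 1.03% and 1.06% and gave H19-206 7.8% and 13.9%. The leading form of H19 was therefore common to both, and its minor forms were not. Peg3-201 held 79.6% and 80.1% of Peg3, and 82.6% and 84.9% by the second quantification, with Peg3-203 at 9.96% and 10.3% and Peg3-204 at 10.4% and 9.22% in the first.

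Grb10-201, which begins at the CpG-rich upstream start printed above, held 80.7% and 86% of Grb10, and 73.8% and 71% by the second quantification. Grb10-203, the 1 annotated transcript at the downstream start, held a mean of 1.28% and, by the second quantification, 3.74%. Little of the heart's Grb10 was thus assigned to this downstream start. The rest went to shorter transcripts that begin elsewhere, such as Grb10-207 at 10.4% and 8.66% in the first quantification and Grb10-209 at 11.6% and 12.9% in the second. These begin at 12026732 and 12026324, farther downstream than both printed starts, so the share of the downstream start does not cover all downstream transcription.

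Mest-211, which begins at the downstream start, held 78.9% and 80.7% of Mest, and 64% and 61.9% by the second quantification. The short Mest-204 at the same start held 17.7% and 16.8% in the first quantification. All transcripts at that start together held a mean of 97.8% and, by the second quantification, 69.7%. The printed upstream start, that of Mest-210 and Mest-207, held 0.0996% by the first and 27.9% by the second. Mest-201, Mest-206 and Mest-209 begin still farther upstream and are not counted there. Both quantifications put most of Mest at the downstream start, and they differed on how much lay at the upstream one.

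Peg10 turned on the first 100 bases of the annotation. Peg10-203 held 100% and 91.1% in the first quantification, and Peg10-202, with the same 3' end, 2 exons and a start 100 bases farther upstream, held 96.6% and 84.5% in the second. No leading form can be named for Peg10 from these tables.

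Cdkn1c-201 led Cdkn1c with 48.2% and 52.5%, but the second quantification gave it 44.5% and 21.9% and placed Cdkn1c-202 at 36.8% in replicate 2. Cdkn1c-205 held 26.8% and 28% in the first quantification and Cdkn1c-204, a retained intron form, 29.1% and 10.1% in the second. Plagl1-202 led Plagl1 with 45.4% and 50.3%, and 40.7% and 54.5% by the second quantification, ahead of short forms such as Plagl1-220 at 11.7% and 13.9% and Plagl1-208 at 11.2% and 9.14%. The second quantification gave Plagl1-220 0% in both hearts and Plagl1-208 1.78% and 0%, and put Plagl1-204 at 6.84% and 10.5%.

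Zim1 had no leading form common to both hearts in the first quantification. Zim1-204, a processed transcript of 408 nt that codes for no annotated protein, held 34.8% and 42.8%, and 55.5% and 57.2% by the second quantification. The full-length coding form Zim1-201 held 40.4% and 30.1%, so it led in replicate 1 and Zim1-204 in replicate 2. The shares of Zim1-204 rest on few reads, 13.3 and 33.2 expected counts against 382 and 573 for Zim1-201. Zim1-202 held 23% and 13.5%, and Zim1-203 held 1.76% and 13.5%.

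**Figure D4:**
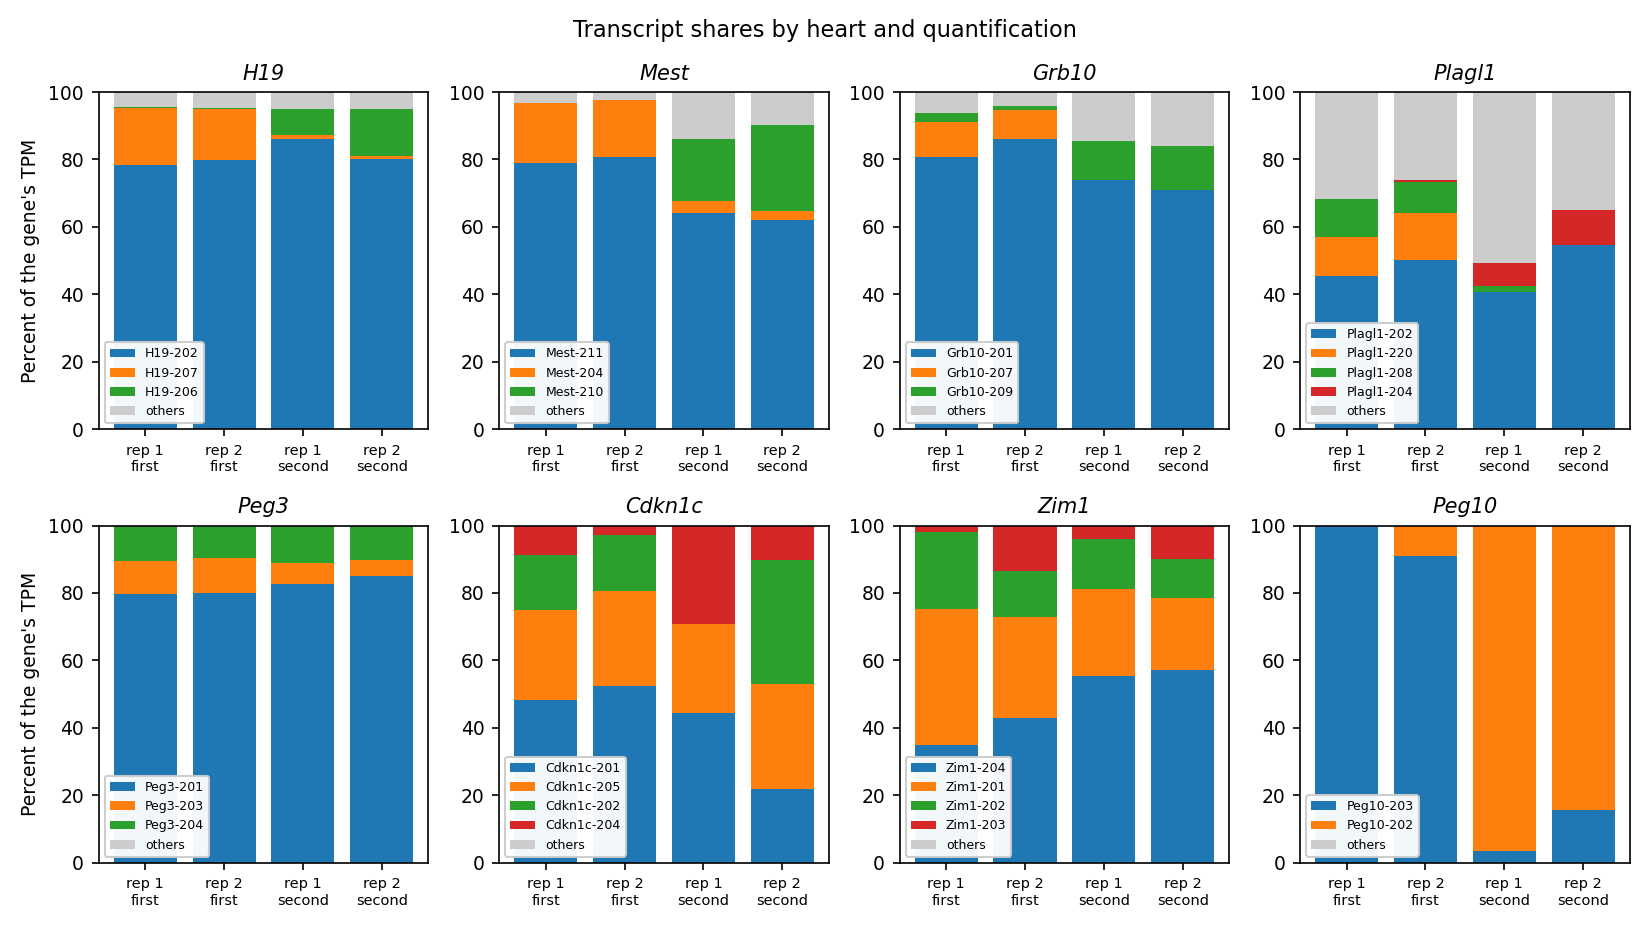
Stacked bars of transcript shares, in percent of the gene's TPM, for the 8 genes with several transcripts, with 1 bar per heart and quantification; a colour marks a transcript with at least 10% in any bar, and grey the rest. H19, Grb10, Peg3 and Mest are mostly 1 transcript in all 4 bars, and the bars of Peg10 change from Peg10-203 to Peg10-202 between the quantifications.

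The level itself also differed between the quantifications. The second gave a higher mean TPM for all 10 genes, by 1.14-fold for Mest up to 1.91-fold for Zim1, with a median of 1.32 against 1.35 over the 13838 genes whose mean TPM reached 1. For 3 of the 10 genes the second was over 1.5-fold higher, beside 26.8% of those genes: Cdkn1c at 34.8 and 33.6, Kcnq1ot1 at 2.08 and 1.44 and Zim1 at 10.5 and 15.9. By the second quantification Kcnq1ot1 also passed 1 TPM in both hearts.

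Promoter windows of 300 bases from RefSeq, 250 before the start and 50 after it, were at hand for 7 of the 10 genes, in 10 windows, of which a pair at the downstream Mest start overlap almost fully. The Ndn window is not at the start of Ndn-201, which begins at 62346569: its RefSeq start, 62348277, lies inside that transcript's only exon, so in this annotation its bases are within the gene. The windows held a median of 15 CpG, against 7 over all 32851 windows of the table. The upstream Grb10 window held 45 CpG, more than 98.1% of all windows, and Plagl1 held 26, Zim1 20, Mest 17 at its downstream start and 8 at its upstream start, Peg3 13, Ndn 11, Kcnq1ot1 9 and the downstream Grb10 window 9. Within Grb10 and within Mest, by both quantifications, the printed start with more CpG held more of the gene's TPM. Grb10 transcripts at neither start, a mean of 15.4% and, by the second quantification, 23.9%, are outside this comparison. These 2 genes were shown because the values of their starts differ, and a link of CpG to share was not tested.

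A search of both strands found TATAAA, the TATA box, in none of the 10 windows, beside 13.6% of all windows, and GCCATNTT, the core of the YY1 site, in none, beside 6.05%. GGGGCCCC, a sequence that PLAGL1 is known to bind, was in 1, that of Peg3, beside 1.08%. A match describes letters in the window and not a bound site.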

How the data were processed

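Total RNA-seq of 2 hearts of 1 group was used. Per the file headers and the notes deposited with them, the first tables hold expected counts and TPM by gene and transcript, each transcript's percent of its gene, and bounds of a TPM interval of unstated level, from a transcriptome alignment to mm10 with GENCODE M21. A further deposited table holds estimated counts and TPM by transcript (the second quantification). The aligner, tool versions and strand setting are not given in the sources used here. Scaling of TPM by the authors ran over all rows, the 96 spike-ins included.

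Expected counts were rounded and scaled by TMM in edgeR 4.0.16 (R 4.3.3) on genes kept by filterByExpr, with 2 as the prior count and without spike-ins and 26248 numbered rows that name no gene. DESeq2 1.42.0 size factors were an alternative. Transcript shares, sums and intervals were computed with Python 3.11.15, pandas 2.3.3, NumPy 2.4.6 and SciPy 1.17.1, figures with matplotlib 3.10.9, and the ratio step was tested on simulated data. A transcript was placed at a RefSeq start within 100 bases of it. No test across samples was run, since 2 hearts of 1 group allow none below 0.5.

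The genes and lists were chosen with earlier results of these data known. Named genes were the 10 genes, 14 pair partners, up to 4 leading genes of a list and those under 1 TPM, and transcripts with at least 10% of a gene; not all are printed. Genes outside this rule, such as Irs2, Igf1r, Dnmt1, Zfp57 and most of the domain neighbours, were named after their values were seen. 1 item of a marker list is not reported here.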

Additional observations from a re-analysis of the deposited data

How the results depend on the processing

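Alternatives were another quantification, other scalings, filters, thresholds and pseudocounts, and each heart alone. The count of 9 expressed genes of the 10 ranged from 8 to 10, and none of the 10 passed 2-fold under the alternatives run. The median log2 ratio of 0.20 was 0.13 to 0.24, except 0.05 as a ratio of TPM, where the median of all genes was -0.13. That scale left 1 gene higher by over 1.2-fold, a bar chosen after seeing the data, against 3 or 4 on the others. On TPM of the first quantification, H19 (-0.04) and Peg3 (-0.02) changed sign, and on TPM of the second, Cdkn1c and Plagl1 did. On scaled counts of the second quantification none of the 10 changed sign, with 0.37 for Cdkn1c and 0.40 for Plagl1. The share of TPM, 0.105% on average and 0.1% to 0.109% for single hearts, was 0.132% by the second quantification and 0.217% of counts. On counts, not corrected for length, 4 pair ratios changed sign: Cdkn1c over Kcnq1ot1 (-1.75), over Cdkn1a (-0.19) and over Cdkn1b (-0.98), and Kcnq1ot1 over Kcnq1 (0.64). Single hearts gave -0.02 to 0.35 for Cdkn1c over Cdkn1a and -0.12 to 0.23 over Cdkn1b. With a pseudocount of 1, Ndn over Magel2 went to 2.93, Cdkn1c over Kcnq1ot1 to 3.45, Kcnq1ot1 over Kcnq1 to -3.61 and Peg3 over Usp29 to 3.59. No paired analysis was possible because there is 1 group. Depth limited the genes under 20 counts, such as Magel2, more than the 10 genes, of which the lowest count was 484. With 2 hearts, an SD is itself imprecise.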
